A study of Mus musculus with 8 samples.

Results

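The Hox cluster genes were examined in mouse embryonic stem (ES) cells in which 1 of 2 histone demethylases had been knocked down. Genes were taken by symbol (Hoxa, Hoxb, Hoxc or Hoxd followed by a paralog number) where the array carried a probe set annotated to that symbol alone, and the brightest such probe set, by its mean across the 8 arrays, stood for the gene. Of 18193 genes measured in this way, 33 were Hox genes, out of 39 in the RefSeq gene table. They comprised 9 genes of the Hoxa cluster on chromosome 6, 9 of Hoxb on chromosome 11, 7 of Hoxc on chromosome 15 and 8 of Hoxd on chromosome 2. By position, 10 were anterior (paralogs 1 to 4), 9 central (paralogs 5 to 8) and 14 posterior (paralogs 9 to 13). The other 6 were not analysed here.

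Each array held total RNA of 1 sample of male 129S4/Svjae (agouti) ES cells grown in medium with LIF, the cytokine that keeps them undifferentiated. Cells of all groups had received a lentivirus with a short hairpin RNA, puromycin selection and a few passages. Jmjd2b_KD (3 arrays) carried a hairpin against Jmjd2b, Jmjd2c_KD (2 arrays) one against Jmjd2c, and the control (3 arrays) one against GFP, a jellyfish protein that serves here as a target with no gene in the mouse. Jmjd2b and Jmjd2c, now named Kdm4b and Kdm4c, remove methyl groups from histone H3. The labels name no hairpin sequence and do not say whether replicates were separate infections or cultures, so the p-values here rest on the variation among these samples alone, and that may be technical.

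Hox genes encode homeodomain transcription factors that give the embryo's cells their position along the body axis. In each cluster, genes towards one end are used earlier and closer to the head, and genes towards the other end later and closer to the tail. In undifferentiated ES cells the clusters are known to be kept silent by Polycomb proteins, which place repressive methyl marks on histone H3, and retinoic acid, Wnt and Fgf signals and Cdx factors are known to open them during differentiation.

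Each deposited value is a linear intensity, with array medians of 44.7 to 46.6. Kdm4b read 50.3, 29.3 and 17.0 in Jmjd2b_KD, 245 and 285 in Jmjd2c_KD and 421, 339 and 643 in control. Kdm4c read 752, 800 and 651 in Jmjd2b_KD, 142 and 470 in Jmjd2c_KD and 1332, 1300 and 1210 in control. Each hairpin's own target was thus lowest in its knockdown, and both genes read below all controls in the other knockdown too, without passing the test there (limma adjusted p = 0.178 for Kdm4b in Jmjd2c_KD and 0.102 for Kdm4c in Jmjd2b_KD). The 8 arrays were placed in 3 sets. Set A was defined only by a floor of its lowest values at 1, and held Jmjd2b_KD array 2 and control arrays 1 and 2. The arrays without this floor were divided by the share of values they held exactly equal. Set B held Jmjd2b_KD array 1 and control array 3, and set C held Jmjd2b_KD array 3 and both Jmjd2c_KD arrays. This share was 0.386% to 0.450% within sets B and C. Within set A it was 0.0333% to 0.0399%, no higher than between arrays of different sets. No control lay in set C, so the Jmjd2c knockdown and the set could be told apart only through Jmjd2b_KD array 3. All 14 ES cell markers lay above background in every array. Of these, 2 rose and 8 fell in Jmjd2b_KD, and 0 rose and 5 fell in Jmjd2c_KD. Of all genes, 11.6% were called higher and 12.9% lower in Jmjd2b_KD, and 4.31% higher and 5.28% lower in Jmjd2c_KD. Klf4, a pluripotency factor, had geometric means of 2170 in Jmjd2b_KD, 2750 in Jmjd2c_KD and 6350 in control. The 5 ES marker calls in Jmjd2c_KD became 3 without control array 1 and 2 without control array 3 or Jmjd2c_KD array 2.

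Most Hox genes were not above background in any group. The background mark of an array was the 95th percentile of 70 olfactory and vomeronasal receptor genes, which ES cells are not known to use. It was 41.5, 47.3 and 47.8 in Jmjd2b_KD, 52.2 and 57.3 in Jmjd2c_KD and 54.0, 54.1 and 53.1 in control. Of the 33 Hox genes, 2 (6.06%) lay above it in every array and 26 in none, while 53.5% of all genes lay above it in every array. Because the mark is a percentile, 6 of the 70 receptor genes passed it in at least 1 array and 3 in every array, and 7 Hox genes (21.2%) passed it in at least 1 array. The genes below it in every array were spread over the clusters: 7 of 9 in Hoxa, 7 of 9 in Hoxb, 5 of 7 in Hoxc and 7 of 8 in Hoxd. By position they were 7 of 10 anterior, 7 of 9 central and 12 of 14 posterior genes. In such bulk extracts, fewer cells that use a gene and less RNA per cell cannot be told apart.

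**Figure D1:**
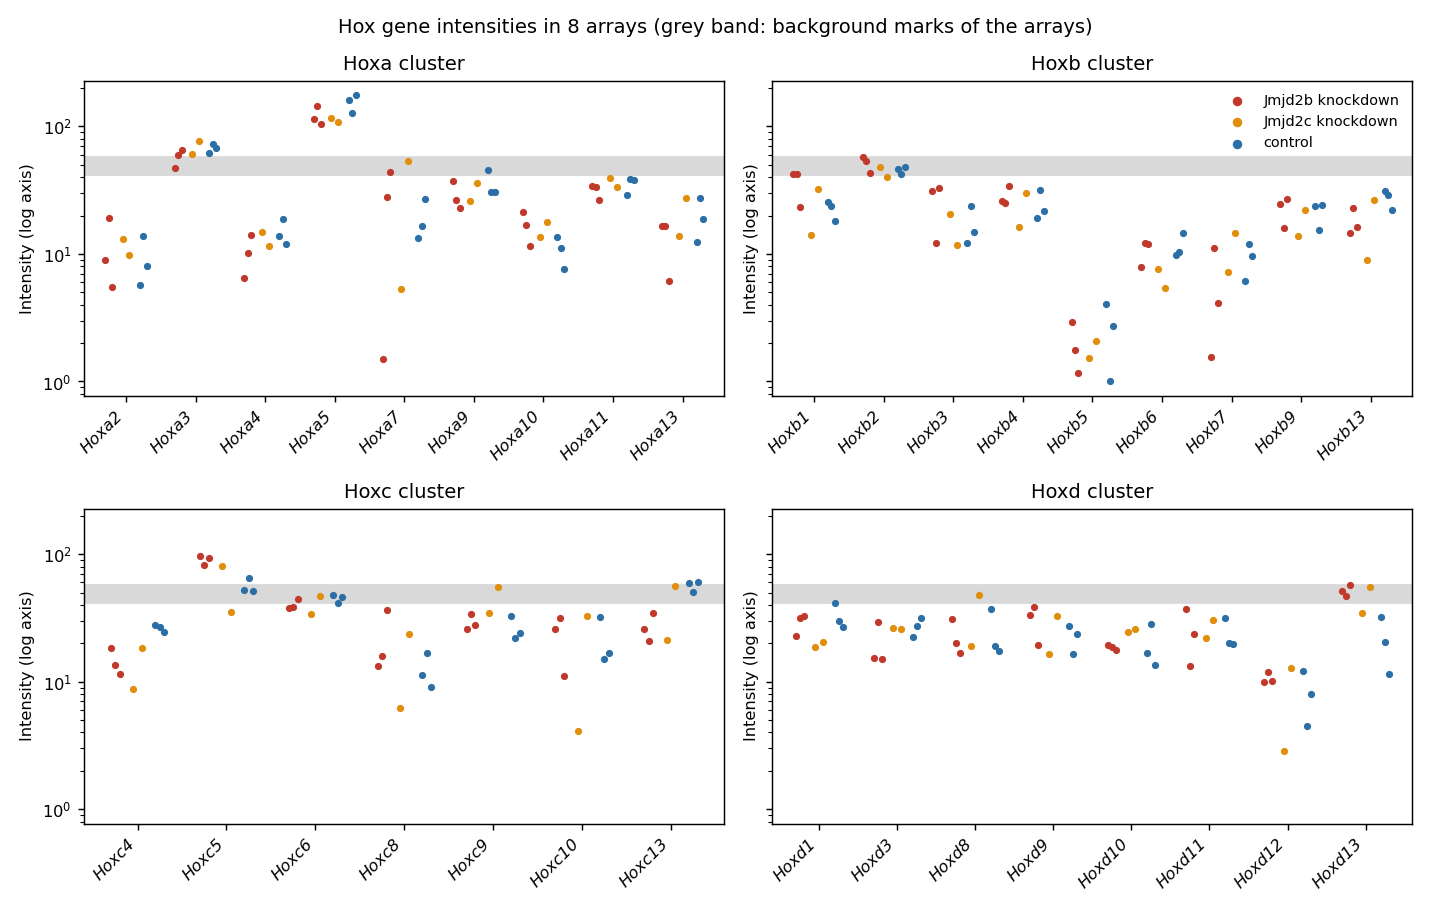
Intensity of the probe set of each of the 33 Hox genes in each array (1 point per array, log axis, Jmjd2b knockdown, Jmjd2c knockdown and control from left to right within a gene). The grey band spans the background marks of the arrays, 41.5 to 57.3; Hoxa3 and Hoxa5 are the genes above the mark of the array in all 8 arrays.

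Hoxa3 and Hoxa5 were the 2 genes above the mark in all 8 arrays. Hoxa5, known for its part in lung and neck skeleton development, read 115, 145 and 105 in Jmjd2b_KD, 116 and 108 in Jmjd2c_KD and 162, 128 and 175 in control. Hoxa3, which patterns the pharyngeal arches, read 47.6, 59.3 and 65.1 in Jmjd2b_KD, 60.8 and 76.2 in Jmjd2c_KD and 62.3, 73.2 and 68.1 in control. Both Jmjd2c_KD arrays lay below all controls for Hoxa5, and the Jmjd2b_KD arrays overlapped the controls for both genes.

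For both of these genes the signal came from 1 probe set of several. The Hoxa5 probe set used is of the _x_at type, which can bind other transcripts, and the other Hoxa5 probe set read 10.2 to 17.4 over the 8 arrays. The other 3 probe sets of Hoxa3 read at most 39.0. Hoxc5 was alike: its probe set in use passed the mark in 5 arrays, and the other 2 probe sets read at most 20.3. With the background mark moved to the 90th percentile, 3 Hox genes lay above it in every array, and at the 99th percentile 1 did.

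**Figure D2:**
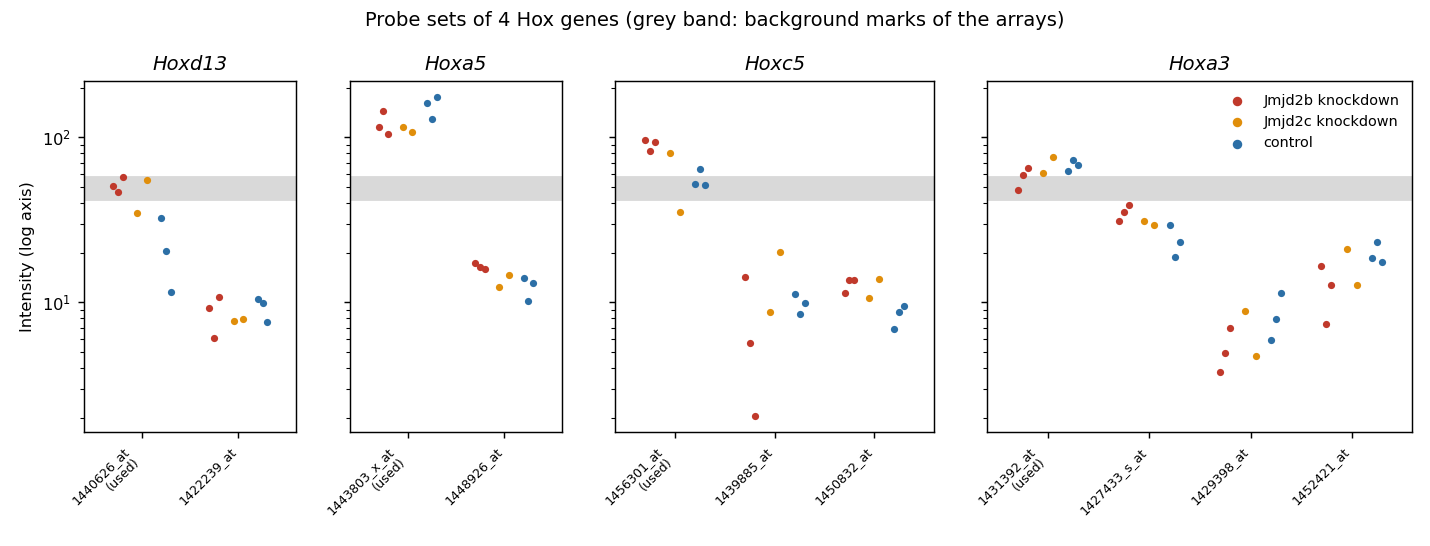
Intensities of every single-symbol probe set of Hoxd13, Hoxa5, Hoxc5 and Hoxa3 in each array (log axis; Jmjd2b knockdown, Jmjd2c knockdown and control from left to right; "used" marks the probe set that stands for the gene). The grey band spans the background marks; the probe sets not used lie below it, such as 10.2 to 17.4 for Hoxa5.

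The other Hox probe sets gave low readings whose order between genes carries no meaning, since probe sets differ in brightness. Hoxa7, Hoxb2 and Hoxb5 are given as examples chosen after their values were seen. Hoxb5, a central gene, read between 1 and 4.04 over the 8 arrays. Hoxa7, a thoracic gene, varied the most between arrays relative to its level, with 1.5, 27.9 and 44.3 in Jmjd2b_KD, 5.28 and 53.9 in Jmjd2c_KD and 13.3, 16.5 and 27.2 in control. Hoxb2, which patterns the hindbrain, lay next to the mark, with 57.4, 53.2 and 43.0 in Jmjd2b_KD, 47.9 and 40.0 in Jmjd2c_KD and 46.1, 42.3 and 47.7 in control. Neither Hoxa7 nor Hoxb2 had groups that stood apart.

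In Jmjd2b_KD, 3 of the 33 Hox genes were called: Hoxd13 rose, Hoxc13 and Hoxc4 fell, and the other 30 did not pass the test. These 3 calls of 33 stood beside 24.4% of all genes called in the same comparison (11.6% higher and 12.9% lower), and beside 13.1% of the 8467 genes that did not lie above the mark in every array. Whether the Hox count differs from either share was not tested. The test was limma on log2(intensity + 16) over all 18193 genes, with Benjamini-Hochberg adjusted p under 0.05; this scale understates changes of dim genes, and every change below is on it. The count over all genes, 4446, became 2635 without control array 3 and 2748 without Jmjd2b_KD array 2. The median change over the 33 genes was -0.02, and -0.03 over all genes. The median absolute change was 0.198 for Hox genes and 0.227 for all genes.

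Hoxd13, the last gene of its cluster and known for patterning digits, read 51.0, 46.7 and 57.2 in Jmjd2b_KD, 34.6 and 54.9 in Jmjd2c_KD and 32.4, 20.4 and 11.5 in control. All arrays of both knockdowns lay above all controls. Its log2 change in Jmjd2b_KD was 0.89 ± 0.21 (SE; limma adjusted p = 0.0133). Only 2 of the 3 Jmjd2b_KD arrays, and no control, exceeded the background mark. The Jmjd2b_KD geometric mean, 51.5, lay below the marks of the controls (54.0, 54.1 and 53.1), so no fold is given. The second Hoxd13 probe set, annotated to a RefSeq mRNA, read 9.27, 6.11 and 10.8 in Jmjd2b_KD, 7.74 and 7.92 in Jmjd2c_KD and 10.5, 9.93 and 7.59 in control; its groups overlapped.

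Hoxc13, a posterior gene known for its role in hair and nails, read 26.0, 20.9 and 34.6 in Jmjd2b_KD, 21.1 and 56.1 in Jmjd2c_KD and 59.4, 50.1 and 60.8 in control. All Jmjd2b_KD arrays lay below all controls, and the 2 Jmjd2c_KD arrays differed from each other. The log2 change in Jmjd2b_KD was -0.76 ± 0.23 (SE; limma adjusted p = 0.0375). With each Jmjd2b_KD array set at its background mark, Hoxc13 was at least 1.24-fold lower in Jmjd2b_KD, with 2 of 3 controls above the mark. These marks (41.5, 47.3 and 47.8) were lower than those of the controls (54.0, 54.1 and 53.1), to which the control readings lay close. Part of this ratio is therefore the difference between the marks.

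Hoxc4, an anterior gene of the same cluster, read 18.4, 13.4 and 11.4 in Jmjd2b_KD, 8.79 and 18.3 in Jmjd2c_KD and 27.8, 26.6 and 24.7 in control. Every knockdown array lay below every control, and every reading lay below the mark. The log2 change in Jmjd2b_KD was -0.48 ± 0.16 (SE; limma adjusted p = 0.0471). With the replicate number as a block the limma adjusted p of Hoxc4 was 0.0668, with a pseudocount of 1 it was 0.0739 and with the array type as a block 0.0909, and the calls of the other 2 genes held in all 3.

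All 3 calls were lost when the array set entered the fit as a block: the change of Hoxd13 was then 0.88 (limma adjusted p = 0.0581), that of Hoxc13 -0.91 (adjusted p = 0.0753) and that of Hoxc4 -0.42 (adjusted p = 0.191). Leaving out 1 array at a time gave between 0 and 4 Hox calls, with 0 without control array 3 (Hoxd13, adjusted p = 0.056), 1 without control array 1, control array 2 or Jmjd2b_KD array 2, and 4 without Jmjd2c_KD array 1 or without Jmjd2c_KD array 2. Within set A the changes were 0.58, -0.93 and -0.55 for Hoxd13, Hoxc13 and Hoxc4, with 0 calls, and within set B, 1 array against 1 and untested, 1.28, -0.87 and -0.24.

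Hoxc5, a central gene next to Hoxc4, read 96.8, 82.1 and 94.1 in Jmjd2b_KD, 80.8 and 35.1 in Jmjd2c_KD and 51.9, 64.6 and 51.6 in control. The Jmjd2b_KD arrays lay above all controls. The log2 change of 0.57 ± 0.22 did not pass (SE; limma adjusted p = 0.0847), and it passed with Jmjd2b_KD and control alone in the fit (adjusted p = 0.00872). In all, 4 Hox genes had groups that did not overlap, 2 higher and 2 lower in Jmjd2b_KD, beside 44.8% of all genes (21% higher and 23.8% lower).

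**Figure D3:**
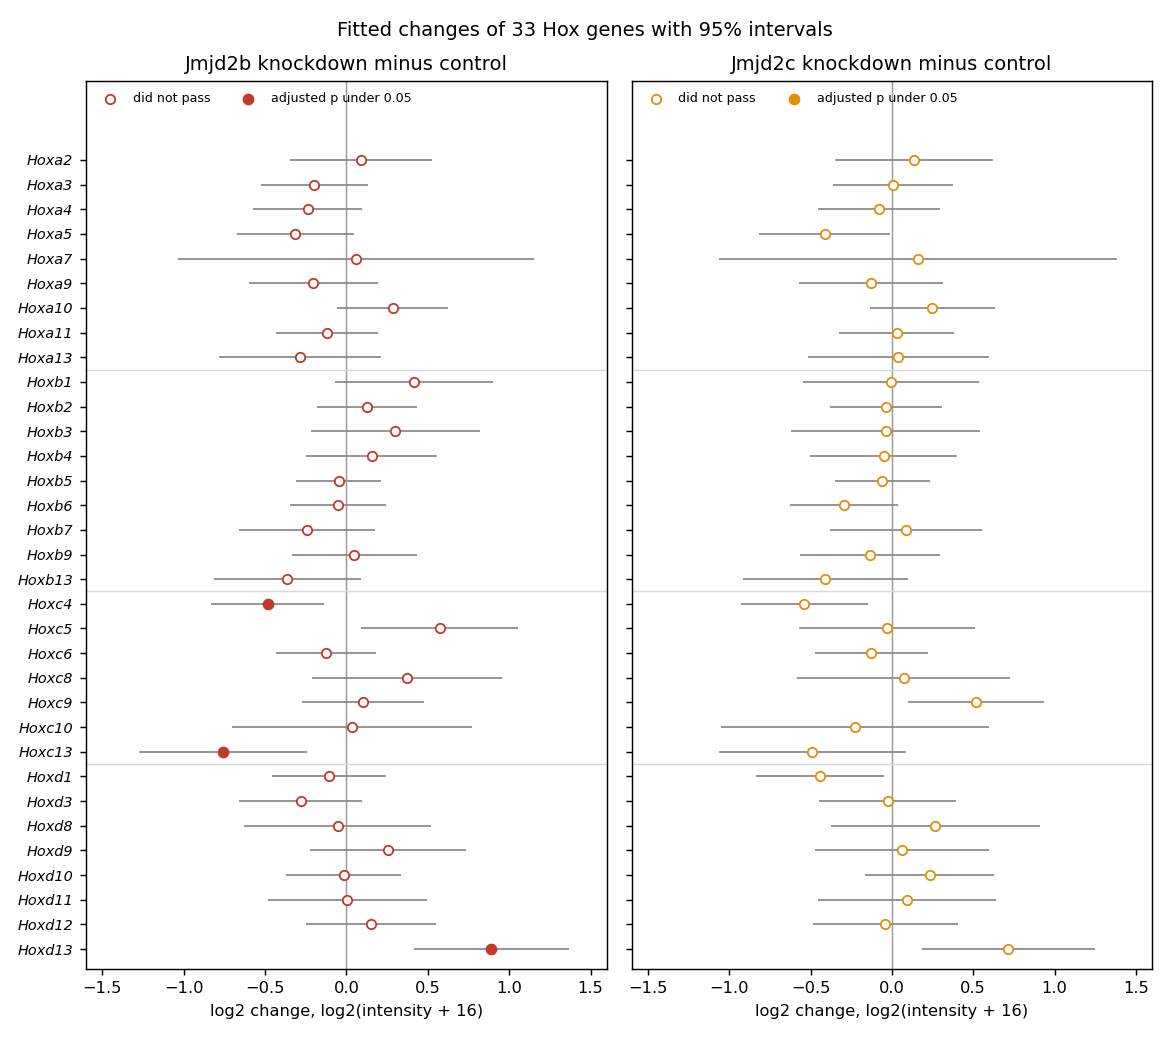
Fitted log2 change of each of the 33 Hox genes in Jmjd2b knockdown (left) and Jmjd2c knockdown (right) relative to control, on log2(intensity + 16), with 95% intervals from limma; filled points passed the test. Hoxd13 (0.89), Hoxc13 (-0.76) and Hoxc4 (-0.48) are filled in the Jmjd2b panel and no gene is filled in the Jmjd2c panel.

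For most of the remaining genes the intervals bounded the change. In Jmjd2b_KD the 95% interval lay within 1 log2 unit either way for 29 of 33 genes and reached past it for Hoxa7, Hoxc5, Hoxc13 and Hoxd13. Hoxb1, the retinoic acid responsive gene of the fourth hindbrain segment, read 42.7, 42.0 and 23.3 in Jmjd2b_KD, 14.0 and 32.6 in Jmjd2c_KD and 25.7, 23.6 and 18.2 in control. Its Jmjd2b_KD change of 0.41 had an interval of -0.07 to 0.90. Hoxa10, known for patterning the lumbar region and the uterus, read 21.5, 16.9 and 11.6 in Jmjd2b_KD, 13.6 and 17.8 in Jmjd2c_KD and 13.5, 11.1 and 7.62 in control, with an interval of -0.06 to 0.63 in Jmjd2b_KD. The intervals describe readings near background on a compressed scale and do not bound the RNA itself.

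Knockdown of Jmjd2c gave 0 Hox calls in limma, beside 9.59% of all genes (4.31% higher and 5.28% lower) and 5.17% of the genes not above the mark in every array. The count over all genes, 1745, became 864 without control array 1, 469 without control array 3 and 2935 without Jmjd2c_KD array 1. At an unadjusted p under 0.05 there were 5 Hox genes, beside 23.9% of all genes. The median change was -0.03 over the 33 genes and -0.02 over all genes. The 95% interval lay within 1 log2 unit for 29 genes and reached past it for Hoxa7, Hoxc10, Hoxc13 and Hoxd13.

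The 2 lowest p-values belonged to genes called in the other knockdown, which was compared with the same controls. Hoxc4 had a log2 change of -0.54 ± 0.17 (SE; limma adjusted p = 0.0842) and Hoxd13 one of 0.72 ± 0.24 (adjusted p = 0.0923). Hoxc9, a thoracic gene, read 34.6 and 55.3 in Jmjd2c_KD, 26.1, 33.8 and 27.9 in Jmjd2b_KD and 32.5, 22.1 and 24.2 in control, a change of 0.52 ± 0.19 in Jmjd2c_KD (adjusted p = 0.121). Hoxd1, known in the mouse for a part in pain-sensing neurons, read 18.7 and 20.6 in Jmjd2c_KD, 22.7, 31.7 and 32.9 in Jmjd2b_KD and 41.6, 29.9 and 26.8 in control, a change of -0.44 ± 0.18 (adjusted p = 0.156). The change of Hoxa5 was -0.41 ± 0.18 (adjusted p = 0.194), and the difference for its second probe set was 0.06. The groups did not overlap for Hoxa10, Hoxc9 and Hoxd13, higher in Jmjd2c_KD, and for Hoxa5, Hoxb6, Hoxc4 and Hoxd1, lower in Jmjd2c_KD, beside 38.6% of all genes.

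The 2 Jmjd2c_KD arrays differed from each other across the Hox genes. The summed intensity of the 33 genes was 794 in array 1 and 1080 in array 2, while the other 6 arrays lay between 948 and 1021. Of the 33 genes, 24 (72.7%) read higher in array 2, beside 52.2% of all genes. Leaving out array 1 gave 2 calls against control, Hoxc9 and Hoxd13, and leaving out array 2 gave 3, Hoxb13, Hoxc4 and Hoxc13, with the lone array taken to vary as the other groups do. The fall of the targeted Kdm4c also differed between these arrays, with readings of 142 in array 1 and 470 in array 2.

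Between the knockdowns 0 Hox genes passed in limma, beside 0.693% of all genes (0.203% higher and 0.489% lower). The count over all genes, 126, lay between 2 (without Jmjd2b_KD array 2) and 804 (without Jmjd2c_KD array 1) when 1 array was left out; it was 31 to 68 without any other control or Jmjd2b_KD array and 596 without Jmjd2c_KD array 2. Hoxc5 was the 1 gene with an unadjusted p under 0.05, beside 13.1% of all genes, with a Jmjd2c_KD minus Jmjd2b_KD change of -0.60 ± 0.24 (SE; limma adjusted p = 0.326); it passed without Jmjd2c_KD array 1 (-1.06, adjusted p = 0.0173). The groups did not overlap for Hoxc9 and Hoxd10, higher in Jmjd2c_KD, and for Hoxb6, Hoxc5 and Hoxd1, lower in Jmjd2c_KD, beside 27.1% of all genes. The 95% interval lay within 1 log2 unit for 30 of 33 genes.

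In every cluster and at every position, genes lay on both sides of control. In Jmjd2b_KD the fitted change was above 0 in 3 of 9 Hoxa, 5 of 9 Hoxb, 4 of 7 Hoxc and 4 of 8 Hoxd genes. In Jmjd2c_KD it was above 0 in 6 of 9, 1 of 9, 2 of 7 and 5 of 8 genes in the same order. By position, it was above 0 in 5 of 10 anterior, 3 of 9 central and 8 of 14 posterior genes in Jmjd2b_KD, and in 2 of 10, 4 of 9 and 8 of 14 in Jmjd2c_KD. In Jmjd2c_KD, 8 of 9 Hoxb genes lay below control. The median change by cluster was -0.20 in Hoxa, 0.05 in Hoxb, 0.04 in Hoxc and -0.01 in Hoxd in Jmjd2b_KD, and 0.03, -0.05, -0.13 and 0.08 in the same order in Jmjd2c_KD. The median difference of the Hoxb genes from the control mean was -0.22 in Jmjd2c_KD array 1 and -0.02 in array 2. The 2 calls in the Hoxc cluster, Hoxc4 and Hoxc13, lie at its opposite ends, and Hoxc5, beside Hoxc4, read higher in Jmjd2b_KD without passing the test.

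**Figure D4:**
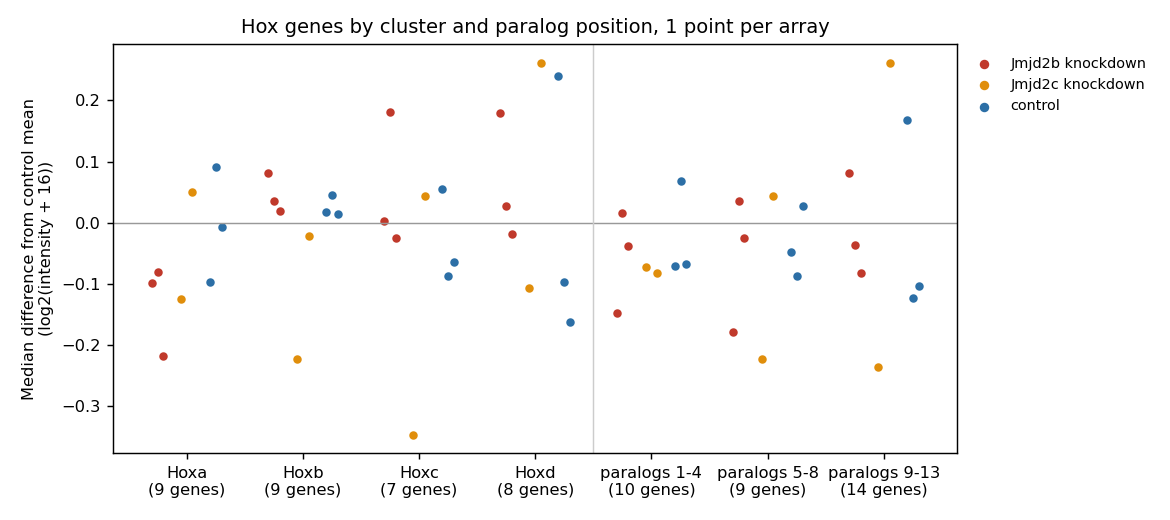
Median over the genes of each Hox cluster (left) and each paralog position (right) of the difference from the control mean, on log2(intensity + 16), with 1 point per array. The Jmjd2b knockdown and control arrays overlap in every cluster and at every position, and Jmjd2c knockdown array 1 is low in Hoxb (-0.22) and Hoxc (-0.35).

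Different probe sets of a Hox gene did not always differ from control in the same direction. Of the 11 Hox genes with several probe sets, all lay on the same side of control in 5 genes in Jmjd2b_KD and in 3 genes in Jmjd2c_KD. Hoxd13 was among those that did not in both: the difference from control of its second probe set was -0.04 in Jmjd2b_KD and -0.09 in Jmjd2c_KD. With the mean of its probe sets in place of the brighter one, the change of Hoxd13 in Jmjd2b_KD was 0.42 (limma adjusted p = 0.0681).

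Promoter sequence is shown for the called genes found in the RefSeq promoter table and for Hoxa5, because CpG-rich promoters are the kind that Polycomb is known to bind. The table (GRCm38.p6) held windows for 19 of the 33 Hox genes. The 250 bases before the start are printed 5′ to 3′ on the strand of the gene, with each CpG in capitals: Hoxd13 at chr2:74667975-74668224 on the plus strand, Hoxc4 at chr15:103034145-103034394 on the plus strand and Hoxa5 at chr6:52204588-52204837 on the minus strand.
Hoxd13: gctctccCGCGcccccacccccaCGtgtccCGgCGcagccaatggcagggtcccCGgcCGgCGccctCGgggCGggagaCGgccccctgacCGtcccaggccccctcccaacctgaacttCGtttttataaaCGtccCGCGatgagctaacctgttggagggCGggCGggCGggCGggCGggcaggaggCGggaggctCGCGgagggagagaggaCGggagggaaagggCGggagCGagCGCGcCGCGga
Hoxc4: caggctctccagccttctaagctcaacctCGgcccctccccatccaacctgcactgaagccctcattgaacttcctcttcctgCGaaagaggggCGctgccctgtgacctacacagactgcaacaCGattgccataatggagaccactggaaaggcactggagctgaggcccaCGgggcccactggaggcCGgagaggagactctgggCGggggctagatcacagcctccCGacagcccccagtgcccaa
Hoxa5: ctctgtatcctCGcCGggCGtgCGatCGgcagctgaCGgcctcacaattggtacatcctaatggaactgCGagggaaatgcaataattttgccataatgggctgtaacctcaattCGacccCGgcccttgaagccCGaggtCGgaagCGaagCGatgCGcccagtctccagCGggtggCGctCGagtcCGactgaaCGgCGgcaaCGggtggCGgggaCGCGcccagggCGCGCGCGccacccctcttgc

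These windows held 31 CpGs for Hoxd13, 8 for Hoxc4 and 28 for Hoxa5. The median was 13 over the 21 Hox windows, which ranged from 2 to 35, and 6 over all 32851 windows. A count of at least 31, that of Hoxd13, was found in 5.19% of all windows, and one of at least 8, that of Hoxc4, in 43%. Hoxd13, which rose, thus had more CpGs than Hoxc4, which fell, and 2 genes give no relation.

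Several upstream activators of the Hox clusters rose. Of 13 measured genes known to activate Hox genes or mark the posterior growth zone, 6 rose and 0 fell in Jmjd2b_KD, and 4 rose and 0 fell in Jmjd2c_KD, beside 11.6% and 4.31% of all genes called higher. Their median change was 0.43 in Jmjd2b_KD and 0.28 in Jmjd2c_KD, beside -0.03 and -0.02 over all genes. Cdx2, a homeodomain factor that activates central and posterior Hox genes in the embryo and also marks trophectoderm, read 331, 532 and 464 in Jmjd2b_KD, 28.6 and 18.6 in Jmjd2c_KD and 5.63, 5.94 and 1.14 in control. All Jmjd2b_KD arrays lay far above the background mark and the others below it, and Cdx2 was at least 8.08-fold higher in Jmjd2b_KD than in control, with the controls set at their marks (limma adjusted p = 7.26e-06). It was at least 7.93-fold lower in Jmjd2c_KD than in Jmjd2b_KD, with the Jmjd2c_KD arrays set at their marks (limma adjusted p = 0.000271).

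Fgf8, a growth factor of the tail bud and primitive streak, read 397, 597 and 263 in Jmjd2b_KD, 141 and 121 in Jmjd2c_KD and 10.1, 6.40 and 6 in control. It was above the mark in both knockdowns and in no control, at least 7.38-fold higher in Jmjd2b_KD (limma adjusted p = 2.2e-05) and at least 2.43-fold higher in Jmjd2c_KD (adjusted p = 0.00191). Wnt3, a signal needed for the primitive streak, read 86.5, 117 and 68.5 in Jmjd2b_KD, 37.0 and 29.3 in Jmjd2c_KD and 8.03, 6.20 and 1.57 in control. Evx1, a homeobox gene beside the Hoxa cluster, read 156, 210 and 64.3 in Jmjd2b_KD, 52.1 and 44.7 in Jmjd2c_KD and 6.23, 10.6 and 3.03 in control.

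Wnt3 and Evx1 passed the mark in Jmjd2b_KD alone, at least 1.65-fold and 2.38-fold higher than control (limma adjusted p = 7.6e-05 and 0.000379). For Evx1 this rests partly on unequal marks. It read 52.13 in Jmjd2c_KD array 1, just under the mark of 52.22 there, while the Jmjd2b_KD marks were 41.5, 47.3 and 47.8. In Jmjd2c_KD the calls of Cdx2, Wnt3 and Evx1 were made on readings below the mark in every Jmjd2c_KD and control array, so no fold is given. The 6 calls in Jmjd2b_KD became 6 or 7 when 1 array was left out, while the 4 in Jmjd2c_KD became 2 without control array 1, control array 3 or Jmjd2c_KD array 1. With the array set as a block, 3 of all 197 listed genes were called in Jmjd2c_KD, against 41 without it. Cdx1 and Cdx4, the other caudal genes, were added after their values were seen: Cdx1 read 64.2, 61.1 and 36.6 in Jmjd2b_KD, 35.7 and 25.5 in Jmjd2c_KD and 38.5, 35.1 and 31.3 in control, and Cdx4 lay below the mark in every array.

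Caudal (Cdx) factors are known to bind TTTATG-like sites, so the Hox windows were searched for TTTATG on both strands (CATAAA on the other). It occurred in 3 of the 21 Hox windows, those of Hoxd11, Hoxd3 and Hoxa7, and in 10.8% of all 32851 windows. The Hoxa7 window, at chr6:52218574-52218823 on the minus strand, held 2 matches and is printed with them in capitals.
Hoxa7: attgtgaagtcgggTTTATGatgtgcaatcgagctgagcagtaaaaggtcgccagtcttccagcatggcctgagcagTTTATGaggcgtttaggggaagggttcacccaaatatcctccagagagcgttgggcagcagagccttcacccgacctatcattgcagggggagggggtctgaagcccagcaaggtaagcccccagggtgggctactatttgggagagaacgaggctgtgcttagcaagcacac

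Hoxa7 itself showed no call: its change was 0.06 in Jmjd2b_KD, with an interval of -1.04 to 1.15, the widest of the 33. The match is a description of these letters and not evidence of a site.

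**Figure D5:**
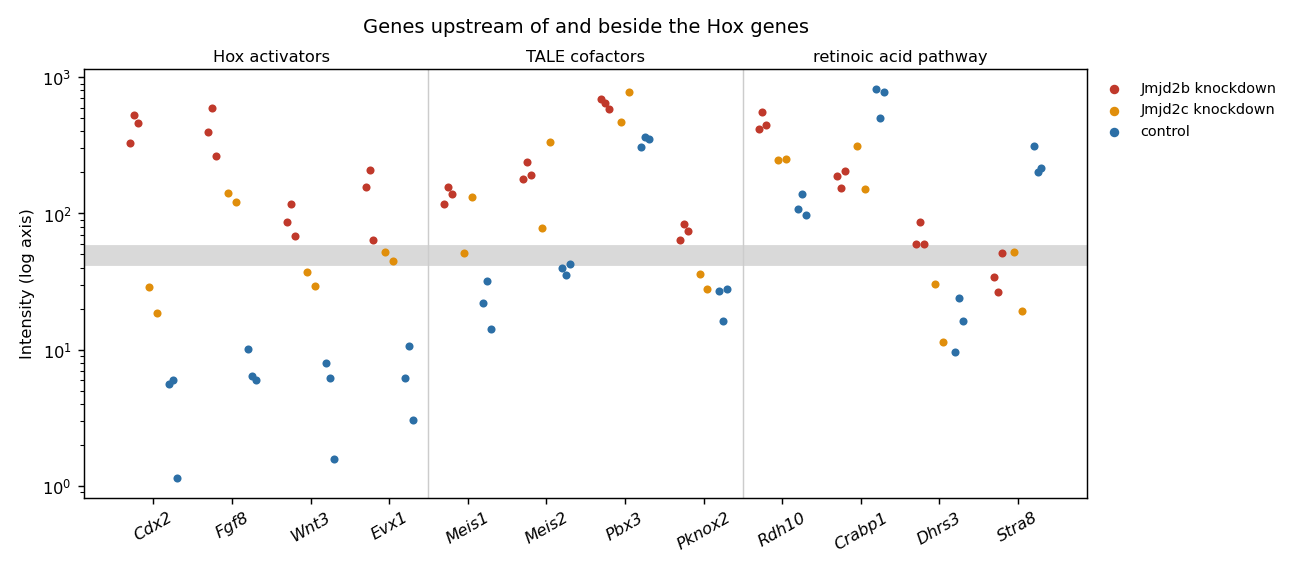
Intensity in each array (log axis) of 4 Hox activators or posterior growth zone markers (headed Hox activators), 4 TALE cofactors and 4 retinoic acid pathway genes. Jmjd2b knockdown, Jmjd2c knockdown and control run from left to right within a gene. The grey band spans the background marks; Cdx2 lies at 331 to 532 in Jmjd2b knockdown and at most at 28.6 in the other arrays.

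TALE homeodomain proteins of the Pbx, Meis and Pknox families bind DNA together with Hox proteins. Of 8 measured, 4 rose and 0 fell in Jmjd2b_KD, and 3 rose and 0 fell in Jmjd2c_KD, beside 11.6% and 4.31% of all genes called higher. Meis1 read 117, 158 and 139 in Jmjd2b_KD, 51.3 and 133 in Jmjd2c_KD and 21.9, 31.7 and 14.1 in control. Meis2 read 181, 237 and 192 in Jmjd2b_KD, 77.8 and 337 in Jmjd2c_KD and 39.7, 35.3 and 42.9 in control. Both were above the mark in all 3 Jmjd2b_KD arrays and in no control, at least 2.55-fold higher for Meis1 and 3.76-fold for Meis2 (limma adjusted p = 0.000854 and 0.00433).

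Pbx3 was above the mark in every array, with 691, 651 and 589 in Jmjd2b_KD, 467 and 774 in Jmjd2c_KD and 308, 365 and 353 in control. Its change was 0.88 ± 0.18 in Jmjd2b_KD and 0.79 ± 0.20 in Jmjd2c_KD (SE; limma adjusted p = 0.00524 and 0.0337). Pknox2 read 64.0, 84.0 and 74.7 in Jmjd2b_KD, 35.8 and 27.8 in Jmjd2c_KD and 27.1, 16.4 and 27.9 in control, and rose in Jmjd2b_KD (adjusted p = 0.000858). The 3 calls in Jmjd2c_KD became 0 without control array 1 or control array 3, and 1 without control array 2, Jmjd2b_KD array 1, Jmjd2b_KD array 2 or Jmjd2c_KD array 2; the 4 in Jmjd2b_KD stayed at 4 without each array in turn.

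Retinoic acid is the classical inducer of Hox genes in ES cells. Of 18 measured genes of its pathway, 3 rose and 2 fell in Jmjd2b_KD, and 1 rose and 2 fell in Jmjd2c_KD, beside 24.4% and 9.59% of all genes called. Rdh10, which makes retinal from retinol, read 420, 559 and 450 in Jmjd2b_KD, 249 and 250 in Jmjd2c_KD and 107, 138 and 97.4 in control, and rose in both (log2 changes of 1.92 and 1.04). Dhrs3, which turns retinal back into retinol, read 59.9, 87.2 and 59.3 in Jmjd2b_KD, 30.1 and 11.4 in Jmjd2c_KD and 9.65, 23.9 and 16.3 in control, and rose in Jmjd2b_KD (limma adjusted p = 0.00232). Cyp26a1, named after its values were seen, also rose in Jmjd2b_KD (limma adjusted p = 0.0206). It read 81.4, 89.1 and 38.4 in Jmjd2b_KD, 36.6 and 52.2 in Jmjd2c_KD and 30.7, 29.0 and 25.2 in control. Only 2 arrays, both Jmjd2b_KD, were above the mark.

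The genes that fell were Crabp1 and Stra8. Crabp1, a retinoic acid binding protein, read 188, 155 and 204 in Jmjd2b_KD, 312 and 152 in Jmjd2c_KD and 824, 499 and 777 in control. Stra8, a retinoic acid responsive gene of germ cells, read 34.2, 26.3 and 51.0 in Jmjd2b_KD, 52.6 and 19.1 in Jmjd2c_KD and 311, 200 and 215 in control. The 6 retinoic acid receptor genes gave 0 calls in limma in either knockdown, and 0 had an unadjusted p under 0.05.

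Of 4 measured genes that act upstream of Hox genes in the head and hindbrain, 3 rose in Jmjd2b_KD and 1, Otx2, in Jmjd2c_KD. These counts stood beside 11.6% and 4.31% of all genes called higher. Otx2, a head gene outside the Hox territory, read 1331, 1529 and 2252 in Jmjd2b_KD, 2368 and 2075 in Jmjd2c_KD and 992, 824 and 797 in control. Gbx2, which marks the border with Otx2, rose in Jmjd2b_KD by 1.09 ± 0.18 (SE; limma adjusted p = 0.00216). Irx3 was above the mark in every Jmjd2b_KD array and in no control, at least 1.91-fold higher (adjusted p = 0.00574).

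Of 30 measured genes of the Polycomb complexes, which hold the Hox clusters silent, 5 rose and 4 fell in Jmjd2b_KD, and 3 rose and 1 fell in Jmjd2c_KD, with medians of 0.02 and -0.03. These counts stood near the shares of all genes called, 24.4% and 9.59%. Ezh2, the methyltransferase of the complex, read 2691, 2584 and 2757 in Jmjd2b_KD, 3255 and 3194 in Jmjd2c_KD and 3456, 3739 and 3882 in control, and fell in Jmjd2b_KD by 0.46 on the log2 scale (limma adjusted p = 0.00124). Phc2 and Yaf2, parts of the other main Polycomb complex, rose in Jmjd2b_KD by 1.17 and 1.38 (adjusted p = 0.00127 and 0.000434). Bmi1, a ring-finger protein of that complex, rose in both knockdowns and read 226, 263 and 335 in Jmjd2b_KD, 140 and 454 in Jmjd2c_KD and 90.8, 74.7 and 58.1 in control. The 4 Polycomb calls in Jmjd2c_KD became 8 without Jmjd2c_KD array 1, 0 without control array 2 or 3, and 2 without control array 1 or Jmjd2b_KD array 1.

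A list of trithorax and COMPASS genes, which oppose Polycomb, also held genes of the histone H3 demethylase families. Some of these remove the mark that COMPASS places. All 19 measured lay above the mark in every array. Of these, 1 rose and 6 fell in Jmjd2b_KD, and 1 rose and 3 fell in Jmjd2c_KD, beside 24.4% and 9.59% of all genes called. The fallers in Jmjd2b_KD were Kmt2c, Wdr5, Ash2l and Rbbp5 of the COMPASS complexes and Kdm1a and Uty of the demethylase families. Those in Jmjd2c_KD were Kmt2c, Wdr5 and the demethylase gene Kdm6b. Rbbp5, Kdm1a and Uty are named after their values were seen. Wdr5, a core subunit of the complex, read 1769, 1521 and 1564 in Jmjd2b_KD, 2053 and 1522 in Jmjd2c_KD and 2650, 2464 and 2510 in control. Setd1b, one of its methyltransferases, rose by 1.04 ± 0.16 in Jmjd2b_KD and 0.92 ± 0.18 in Jmjd2c_KD (SE; limma adjusted p = 0.00147 and 0.014), and Kmt2c, another, fell by 0.73 and 0.85 on the log2 scale (adjusted p = 0.00785 and 0.0173). The 7 calls in Jmjd2b_KD became 4 without control array 3. The 4 calls in Jmjd2c_KD became 7 without Jmjd2c_KD array 1, 0 without control array 3, and 2 without control array 1, control array 2, Jmjd2b_KD array 2 or Jmjd2c_KD array 2.

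Most genes beside the clusters lay above the mark. Of 16 measured neighbours, 13 did so in every array; 3 rose and 3 fell in Jmjd2b_KD, and 2 rose and 2 fell in Jmjd2c_KD, beside 24.4% and 9.59% of all genes called. Atp5g1, a subunit of mitochondrial ATP synthase near the Hoxb cluster, read 3450, 3528 and 3563 in Jmjd2b_KD, 3432 and 3342 in Jmjd2c_KD and 1264, 1473 and 1362 in control. Hibadh and Skap2, near the Hoxa cluster, fell in both: by 1.18 and 0.86 in Jmjd2b_KD and by 0.67 and 0.77 in Jmjd2c_KD on the log2 scale. Of 29 other homeobox genes of the Antennapedia class, to which Hox genes belong, 16 lay below the mark in every array. In Jmjd2b_KD 5 of the 29 rose and 0 fell, and in Jmjd2c_KD 4 rose and 0 fell, beside 11.6% and 4.31% of all genes called higher. The lists share genes, so these counts are not separate from those above. Cdx2 and Evx1, called in both knockdowns, were also counted in the Hox activator list, and Evx1 among the neighbours. Gbx2, called in Jmjd2b_KD, was also counted in the head and hindbrain list. Msx1 was at least 3.20-fold higher in Jmjd2b_KD and 1.30-fold higher in Jmjd2c_KD than in control (limma adjusted p = 6.3e-05 and 0.00561). The Msx1 calls rest on a probe set of the _s_at type: without _x_at and _s_at probe sets its log2 change was 0.11 in Jmjd2b_KD and -0.05 in Jmjd2c_KD, and neither passed. The 4 neighbour calls in Jmjd2c_KD became 1 without control array 3. The homeobox calls became 8 in Jmjd2b_KD without Jmjd2b_KD array 3, and in Jmjd2c_KD 1 without control array 1 and 2 without control array 3 or either Jmjd2c_KD array.

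Markers of other cell types that use Hox genes also differed between the groups. Of 21 fibroblast genes, 5 rose and 2 fell in Jmjd2b_KD and 3 rose and 3 fell in Jmjd2c_KD, beside 24.4% and 9.59% of all genes called. Their summed intensity was 12570 to 20250 in Jmjd2b_KD, 10280 to 11610 in Jmjd2c_KD and 7361 to 8207 in control. This sum is carried by a few bright probe sets: Tagln read 2199, 1994 and 8213 in Jmjd2b_KD, 917 and 1011 in Jmjd2c_KD and 46.9, 135 and 129 in control, and Vim and Acta2 were also bright. Thy1 read 40.9, 28.2 and 38.9 in Jmjd2b_KD, 53.1 and 17.4 in Jmjd2c_KD and 114, 106 and 123 in control, and fell in both. Pdgfrb, named after its values were seen, also fell in both, with 144, 138 and 130 in Jmjd2b_KD, 128 and 267 in Jmjd2c_KD and 390, 357 and 386 in control. Of the 21 fibroblast genes, 4 lay above the mark in every array and 7 below it in every array. Lum, Dcn, Postn and Pdgfra were among those below it in every array, and Col3a1 was above it in 1 Jmjd2b_KD array. Col5a1 was above it in every array, Loxl1 in 7, Col1a2 in 3, Col6a2 in Jmjd2b_KD arrays 1 and 2, and Col6a1 in none. Col1a1 read 47.4, 50.4 and 69.9 in Jmjd2b_KD, 25.04 and 26.43 in Jmjd2c_KD and 12.5, 17.7 and 7.34 in control. Of 17 posterior mesoderm and neural genes, 6 rose and 0 fell in Jmjd2b_KD and 4 rose and 0 fell in Jmjd2c_KD. These counts stood beside 11.6% and 4.31% of all genes called higher. Foxc1, called in both, was not above the mark in any array. Its geometric means were 22 in Jmjd2b_KD, 15.8 in Jmjd2c_KD and 2.42 in control. The sums of the 17 genes were 1295 to 2531 in Jmjd2b_KD, 1150 to 1428 in Jmjd2c_KD and 799.8 to 1049 in control. The 6 fibroblast calls in Jmjd2c_KD became 2 without control array 3. The part of these cells, and of RNA quality (actin 3' to 5' ratios of 1.42, 1.36 and 1.31 in Jmjd2b_KD, 1.48 and 1.43 in Jmjd2c_KD and 1.63, 1.45 and 1.56 in control), in the Hox readings was not tested.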

How the data were processed

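Total RNA of 8 samples was hybridised as biotin-labelled cRNA to Affymetrix arrays, per the labels' protocols. The deposited table holds 1 linear intensity per probe set and array (45101 probe sets); the summarisation and scaling are not given in the sources used here. Of these, 34945 had 1 gene symbol, 932 several and 9160 none, and 64 were array controls. The brightest single-symbol probe set stood for each gene. Differences were tested with limma 3.58.1 in R 4.3.3 (lmFit, eBayes with trend) on log2(intensity + 16), all 8 arrays in 1 fit, Benjamini-Hochberg over 18193 genes. On simulated data for Jmjd2b_KD versus control with 18193 genes, 69% of genes changed by 1 log2 unit and 96% of those changed by 2 were recovered. The changed genes, 100 of each size, were drawn from genes of any brightness, and changed on the log2(intensity + 16) scale. They were far fewer than the genes called in the data. The rates are therefore not those for the Hox genes, most of which lay below the mark. The number of arrays limits the precision.

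The members and gene lists were chosen with earlier results of these data known. Hox genes were named where called in a comparison, where above the background mark in every array of a group, or among up to 4 more per comparison with the smallest p. Of each list, up to 4 genes with the smallest p per knockdown were picked for naming, and not all of these are given above. Few or none are given for the ES cell, posterior mesoderm and neural, trophectoderm and primitive endoderm lists. Same-numbered Jmjd2b_KD and control arrays deviated together (correlations of 0.176, 0.111 and 0.116), a pairing seen in the data and not stated in the labels. Same-numbered Jmjd2c_KD and control arrays had 0.0408 and 0.0633. Alternatives covered the pseudocount, dim genes, quantile normalization, probe set choice, the groups in the fit, and blocks for replicate, array type and array set. Figures used matplotlib 3.10.9.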

Additional observations from a re-analysis of the deposited data

How the results depend on the processing

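No Hox gene passed in Jmjd2c_KD versus control, or between the knockdowns, under any alternative that kept all 8 arrays. In Jmjd2b_KD versus control, 3 Hox calls became 0 with the array set as a block, 0 within array set A, and 0 among genes brighter than the median gene, which left 1 Hox gene. With 1 array left out, Hox calls ranged from 0 to 4 in Jmjd2b_KD, 0 to 3 in Jmjd2c_KD and 0 to 1 between the knockdowns. The Hox count above the background mark in every array was 1 with the 99th percentile. Kdm4c was -1.96 with the array set as a block (limma adjusted p = 0.273). With the replicate block the Hox calls in Jmjd2b_KD were 2, without Hoxc4 (limma adjusted p = 0.0668), and no other Hox call changed; Hoxc4 was also lost with a pseudocount of 1 (adjusted p = 0.0739) and with the array type as a block (0.0909), and Hoxd13 with the mean of its probe sets (0.0681).

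Over the 197 listed genes, 75 were called in Jmjd2b_KD, 41 in Jmjd2c_KD and 5 between the knockdowns. The 75 became 43 within array set A. The 41 became 3 with the array set as a block, and 16 to 55 with 1 array left out. The 5 became 3 with a pseudocount of 1, 3 with the mean of all probe sets, 2 with no trend, 1 with only the 2 groups, 9 with the replicate block, 1 with the array type and 1 with the array set as a block, 0 within array set C, and 1 to 27 with 1 array left out. Over all genes, 4446 calls in Jmjd2b_KD became 1178 within array set A, and 1745 in Jmjd2c_KD became 876 with only the 2 groups, 1057 with the array type and 9 with the array set as a block. The 126 between the knockdowns became 80 with a pseudocount of 1, 66 with no trend, 2 with only the 2 groups, 6 with the array type and 5 with the array set as a block, and 0 within array set C. With 1 array left out, these counts ranged from 2635 to 5630 in Jmjd2b_KD, 469 to 2935 in Jmjd2c_KD and 2 to 804 between the knockdowns. The median Hox change among genes brighter than the median gene, a single gene, was -0.31 in Jmjd2b_KD and -0.41 in Jmjd2c_KD. It was -0.22 in Jmjd2c_KD without Jmjd2c_KD array 2.

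Small differences changed sign. In Jmjd2c_KD, Hoxb1 was 0.0058 with a pseudocount of 50, 0.17 with the array type and 0.58 with the array set as a block. Hoxc5 was 0.13 and Ash2l 0.0801 with the mean of all probe sets, and Hoxa3 was -0.20 with the array set as a block. Hoxa5 without _x_at and _s_at probe sets was 0.20 in Jmjd2b_KD and 0.0609 in Jmjd2c_KD, and 0.0043 in Jmjd2b_KD within array set A. Msx1 without such probe sets was -0.0494 in Jmjd2c_KD. Between the knockdowns, Hoxa10 was 0.0157 with the array type as a block; with the array set as a block or within set C, Hoxa5 was 0.075, Hoxa10 0.20 and Hoxc4 0.0906. With 1 array left out, the ranges crossing 0 were -0.35 to 0.34 for Hoxb1, -0.49 to 0.43 for Hoxc5, -0.23 to 0.0444 for Ash2l, -0.12 to 0.14 for Hoxa3 and -0.23 to 0.52 for Dhrs3 in Jmjd2c_KD. For Hoxd1 in Jmjd2b_KD the range was -0.20 to 0.0174. Between the knockdowns it was -0.19 to 0.0187 for Hoxa5, -0.15 to 0.0711 for Hoxa10, -0.29 to 0.18 for Hoxc4, -0.42 to 0.0712 for Hoxd13 and -0.21 to 0.75 for Hoxc13. The cause was not tested.

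Most Hox readings lay below the background mark, which limits what these arrays can show of them. Array set and Jmjd2c knockdown can be separated only through 1 array.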

Other observations

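Markers of extraembryonic lineages were measured as well. Of 10 trophectoderm genes, 5 rose and 3 fell in Jmjd2b_KD, and 1 rose and 1 fell in Jmjd2c_KD, beside 24.4% and 9.59% of all genes called. Cdx2, also counted among the Hox activators above, is among the risers in Jmjd2b_KD and is the 1 riser in Jmjd2c_KD. In Jmjd2c_KD it read 28.6 and 18.6, below the background mark in both arrays. Their summed intensity was 8334 to 11920 in Jmjd2b_KD, 4483 to 5995 in Jmjd2c_KD and 4588 to 5031 in control. The 8 calls in Jmjd2b_KD became 5 without control array 1 or Jmjd2b_KD array 1, and 4 without control array 3 or Jmjd2b_KD array 2. The 2 calls in Jmjd2c_KD became 0 without control array 1 or 3 and 1 without Jmjd2c_KD array 2.

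Of 14 primitive endoderm genes, 4 rose and 1 fell in Jmjd2b_KD, and 1 rose and 0 fell in Jmjd2c_KD, beside 24.4% and 9.59% of all genes called. Their summed intensity was 6883 to 7769 in Jmjd2b_KD, 5022 to 5125 in Jmjd2c_KD and 3667 to 4598 in control. The 1 call in Jmjd2c_KD became 0 without control array 1, control array 3 or Jmjd2c_KD array 2, 2 without control array 2 or Jmjd2b_KD array 3, and 5 without Jmjd2c_KD array 1.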
